A study of Bos taurus with 2 samples.

Results

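The testis-specific serine kinases (TSSK) and their substrate TSKS were followed in testis RNA of crossbred and Zebu bulls. The genes sought were TSSK1B, TSSK2, TSSK3, TSSK4, TSSK6 and TSKS, and every non-control probe of the bovine array that carried one of these gene names was used. Probes were found for 5 of the 6 genes, out of 32429 gene names on the array, and these 5 genes had 7 probes with 1 spot each. TSSK2 had 0 probes by name, description or accession and therefore has no value. The crossbred bulls were Holstein Friesian crosses with 50 to 75% exotic inheritance and the Zebu bulls were of the Tharparkar breed. All were 24 months old. In each group the right testis of 3 bulls was removed, and equal amounts of their total RNA were pooled and hybridized with Cy3 to 1 array. Because each group is 1 pool on 1 array, the values below describe these pools, the spread between bulls is not known and no test was possible. Differences are crossbred minus Zebu on the log2 scale, after the log2 signal of each array was set relative to its 75th percentile. A difference of 1.5 or more in size was counted as higher or lower, which is a 2.83-fold ratio of linear signal.

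Testis-specific serine kinases are protein kinases of the calcium/calmodulin-dependent (CAMK) group whose transcripts appear mainly in spermatids, the haploid germ cells that reshape into spermatozoa. TSSK1B and TSSK2 bind and phosphorylate TSKS (testis-specific serine kinase substrate), a protein of the spermatid and sperm tail, and in the ARS-UCD2.0 gene table of cattle both genes are neighbours on chromosome 17. TSSK3 is activated by the kinase PDPK1, TSSK4 acts on the tail protein ODF2 and on the transcription factor CREB1, and TSSK6 needs the chaperone HSP90 and the co-chaperone TSACC and is needed in mice for histone replacement in spermatid chromatin. Male mice that lack these kinases have sperm defects and reduced or no fertility.

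The probes that measured these transcripts are given first because several of these genes are related by sequence, and a probe that could bind more than 1 of them would blur their values. The sequences are those of the array annotation, 60 bases each, written 5′ to 3′ as deposited. For the 7 probes with a gene name they were as follows.
TSSK1B: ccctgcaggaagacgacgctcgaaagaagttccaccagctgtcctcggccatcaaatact
TSSK3: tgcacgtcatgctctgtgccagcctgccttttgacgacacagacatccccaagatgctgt
TSSK4, probe 1: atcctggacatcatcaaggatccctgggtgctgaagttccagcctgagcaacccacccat
TSSK4, probe 2: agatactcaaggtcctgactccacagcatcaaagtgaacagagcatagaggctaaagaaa
TSSK6: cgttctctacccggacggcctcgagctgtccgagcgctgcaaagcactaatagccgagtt
TSKS, probe 1: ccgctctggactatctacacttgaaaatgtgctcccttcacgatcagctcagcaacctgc
TSKS, probe 2: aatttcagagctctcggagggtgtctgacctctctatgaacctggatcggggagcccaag

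The longest run of bases that probes of different members had in common was 9. Among all probes of the array, compared as written, a shared run of 16 or more bases was found for 1 of these probes only, the TSSK3 probe, which had 17 bases in common with a probe for ACTN4, an actinin of the cytoskeleton. That ACTN4 probe differed between the arrays by -1.83, the opposite sign to TSSK3. These comparisons were between probes, not between a probe and whole transcripts. Binding of a probe to the transcript of another member was therefore not tested, and TSSK2 had no probe to compare. On HGSC Btau_3.1, the build of the array annotation, the TSSK3 probe lay at chr2:125420238-125420297, the TSSK4 probes at chr10:21232406-21232465 and chr10:21228550-21228609, the TSSK6 probe at chr7:3734033-3734092 and the TSKS probes at chr18:56067954-56068013 and chr18:56070420-56070479. The annotation listed the TSSK1B probe as unmapped. It gave no strand and no exon or UTR for any of them, and gene models of that build were not used here.

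3 further probes were read that the array lists by an accession in place of a gene name, each with 2 spots. They were found after the values of the named probes were seen.
TSSK6, further probe: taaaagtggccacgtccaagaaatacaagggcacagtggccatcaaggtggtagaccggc
TSSK3, further probe: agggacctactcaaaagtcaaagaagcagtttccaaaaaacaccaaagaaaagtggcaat
TSSK4, further probe: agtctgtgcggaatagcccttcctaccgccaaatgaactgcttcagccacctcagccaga
The accession of the first belongs to TSSK6 in the RefSeq gene table. The other two are tied to TSSK3 and TSSK4 only by the closest other transcript that the annotation names, with an aligned stretch of 17 and 18 bases, so the gene they measure is less sure.

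All 5 measured members had a higher signal in crossbred than in Zebu testis, and all 7 named probes were well above background on both arrays. TSSK6 and TSSK3 differed most, by 2.77 and 2.67, followed by TSSK1B with 1.60, TSKS with 1.54 and TSSK4 with 1.38. The first 4 passed the threshold of 1.5 and TSSK4 did not, and 0 members were lower. The study itself listed these 4 genes from the same arrays, so their direction is not independent evidence. In RNA of a whole tissue, more cells of a type and more RNA per cell cannot be told apart. Among all 24751 detected transcripts, 7.12% were higher in crossbred and 2.92% were lower. The median difference was 1.60 over the 5 members and -0.05 over all detected transcripts. The split of all calls depended on the background correction, with 70.9% of the calls in the direction of crossbred here and 85.9% after normexp correction.

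TSSK1B, a kinase of the pair that phosphorylates TSKS, gave 1.40 in crossbred and -0.20 in Zebu testis as normalized log2 signal. The linear signals were 3102 and 1076, a 3.02-fold ratio. Of all detected transcripts, 93.7% had a smaller difference than TSSK1B. It had only 1 probe with 1 spot, so neither a second probe nor a second spot stands beside its value.

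For TSSK3 the normalized log2 signal was 3.40 in crossbred and 0.73 in Zebu testis. The linear signals of its spot were 12392 and 2046, a 6.35-fold ratio, and 332 detected transcripts of the array had a larger difference. The further probe tied to TSSK3 by the closest transcript gave 0.20 and -2.39, a difference of 2.60, with 2.47 and 2.72 at its separate spots. Both probes thus lay within 0.07 of each other.

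TSSK4 reached a log2 signal of 1.85 in crossbred against 0.47 in Zebu testis, with linear signals of 4242 and 1711, a 2.60-fold ratio. Its second named probe was much dimmer, at -4.74 and -5.60, and it differed by 0.86. The linear signals of that probe, with background already subtracted, were 44.0 and 25.5. Before subtraction its mean pixel intensities were 101 and 82.2, against a local background of 32 and 33. The further probe tied to TSSK4 gave 0.94 and -0.29, a difference of 1.23, with 1.23 and 1.22 at its spots. All of the probes read for TSSK4 were higher in crossbred and none reached 1.5.

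TSSK6, the kinase with the largest difference, reached a log2 signal of 2.01 in crossbred against -0.76 in Zebu testis. The linear signals were 4736 and 729, a 6.81-fold ratio, and 282 detected transcripts had a larger difference. The further probe of TSSK6 gave -1.64 and -4.10, a difference of 2.46, with 2.36 and 2.56 at its spots. That probe was 5.51-fold brighter in crossbred, so the named and the further probe of TSSK6 gave the same direction with a gap of 0.31.

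TSKS, the substrate, was measured by 2 named probes. At the brighter probe the log2 signal was 4.30 in crossbred and 2.76 in Zebu testis, with linear signals of 23096 and 8332 and a 2.91-fold ratio. The dimmer had 2.83 and 1.12, with linear signals of 8380 and 2681 and a 3.28-fold ratio. Their differences of 1.54 and 1.71 both passed the threshold, and 93.3% of detected transcripts had a smaller difference than the brighter probe.

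**Figure D1:**
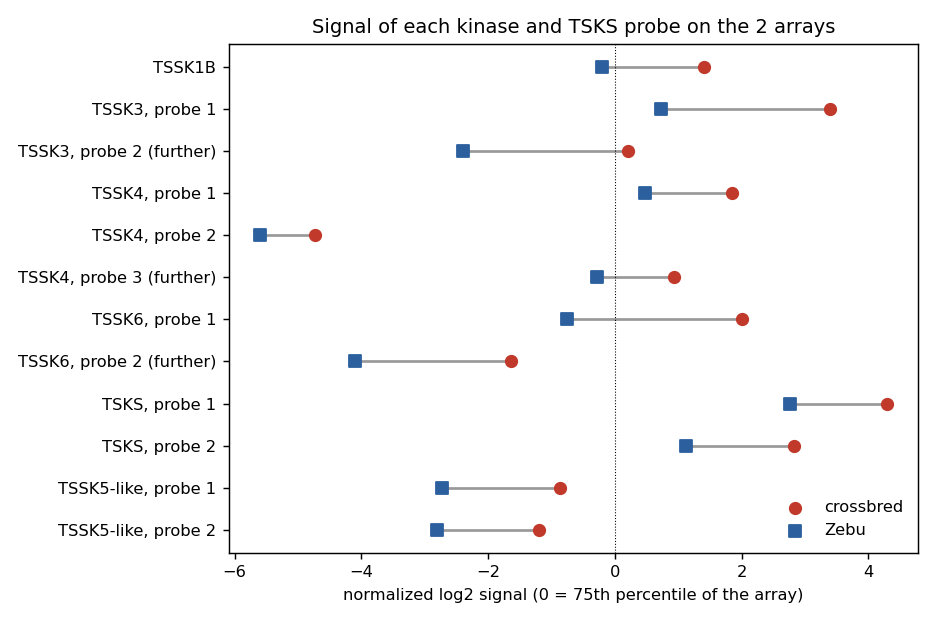
Normalized log2 signal (x axis, 0 is the 75th percentile of the array) of each probe of the kinases and TSKS in crossbred (red circles) and Zebu testis (blue squares), with further probes as described in the text and the 2 probes of a TSSK5-like transcript in the last rows. The crossbred value lies to the right of the Zebu value for every probe, and the line between them is longest for TSSK6 and TSSK3.

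The only measured error of these values is the spread between spots of 1 probe, which covers spotting and scanning and leaves out labelling, pooling and animals. Over 2187 probes with several spots and at least the Zebu signal of the dimmest member, the SD of a difference was 0.31. For the gap between 2 members this gives an SD of 0.45. The median gap between the differences at spots of the same probe was 0.11, so probes with wider gaps weigh heavily in the SD. Spots in the array patches described below were kept in it. TSSK6 and TSSK3 were 0.10 apart, TSSK1B and TSKS 0.06 apart, and TSKS and TSSK4 0.16 apart, so the order within these sets is inside the spot error. The gap of 1.07 between TSSK3 and TSSK1B was larger than it. Over all probes, including those that set this order, the range was 2.46 to 2.77 for TSSK3 and TSSK6. For TSSK1B, TSSK4 and TSKS it was 0.86 to 1.71. The probes that did not set the order gave 2.60 for TSSK3 and 2.46 for TSSK6, both at further probes. They gave 0.86 and 1.23 for TSSK4 and 1.71 for TSKS. TSSK1B had no such probe. In 8185 genes, several probes were well above background on both arrays. The median range between such probes of a gene was 0.39, against 0.17 for TSKS and 0.52 for TSSK4 with its further probe included.

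Counted by probe, 5 of the 7 named probes were higher, and 2 of the 3 further probes. Over all 39804 detected probes of the array, 6.14% were higher in crossbred.

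**Figure D2:**
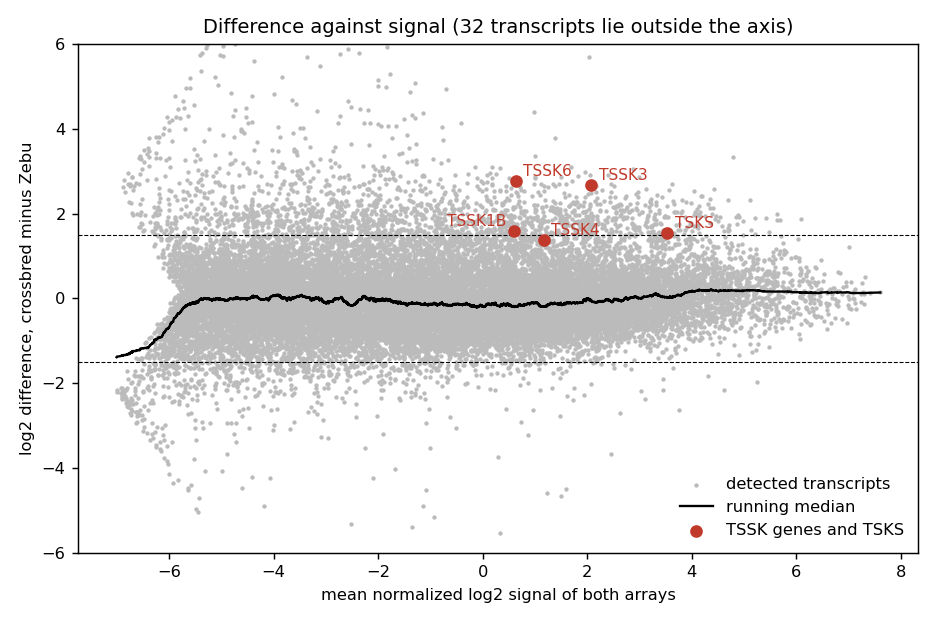
Difference (y axis, log2, crossbred minus Zebu) against the mean normalized log2 signal of both arrays (x axis) for all detected transcripts (grey), with the running median (black line), the thresholds of 1.5 in size (dashed) and the 5 measured members (red). TSSK3 and TSSK6 lie near the upper edge of the cloud at their signal, and 32 transcripts lie beyond the y axis.

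The members are among the brighter transcripts, so their differences were also set beside transcripts of like signal. Transcripts within 0.5 of the mean log2 signal of a member had a median difference of -0.14 for TSSK1B, -0.08 for TSSK3, -0.14 for TSSK4, -0.14 for TSSK6 and 0.06 for TSKS. With the running median at like signal subtracted, TSSK6 differed by 2.95, TSSK3 by 2.71, TSSK1B by 1.78, TSSK4 by 1.57 and TSKS by 1.51, and all 5 were then at or above 1.5. Under this setting 7.95% of all detected transcripts were higher.

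The crossbred array held a dark patch of 544 spots and a bright patch of 105 spots, and none of the probes above had a spot in either. None of their spots was marked as an outlier by the scanner software, and no spot of the array was saturated. The median difference of the 18 nearest spots lay between -0.40 and 0.40 for the 13 spots of the named and further probes, while the spots themselves lay between 0.86 and 2.77. For 10 of these spots no adjacent spot was higher by 1.5 or more. At 1 spot of the further TSSK6 probe, 3 of the 6 adjacent spots were, and its difference of 2.56 stands beside 2.36 at the other spot of that probe.

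**Figure D3:**
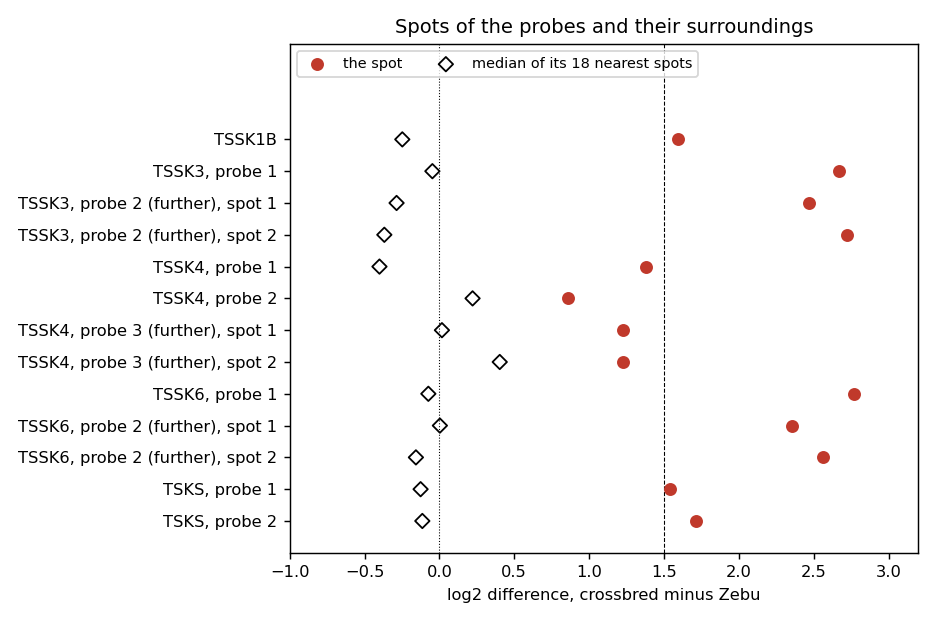
Difference (x axis, log2, crossbred minus Zebu) of each spot of the named and further probes (red circles) and the median difference of its 18 nearest spots on the slide (open diamonds), with the threshold of 1.5 dashed. All 13 spots lie between 0.86 and 2.77, while the medians of their surroundings lie between -0.40 and 0.40.

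Beyond the members, the array held a TSSK5-like transcript, LOC523023, a predicted relative of these kinases. Its probe gave -1.20 in crossbred and -2.81 in Zebu testis as normalized log2 signal, a difference of 1.61. A second probe, listed by accession and with 16 bases in common with the first, gave -0.86 and -2.72, a difference of 1.86, with 2.13 and 1.59 at its spots. This relative was also brighter on the crossbred array.

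Most of the listed partners and substrates of the kinases differed by less than the members did. All 12 were on the array and above background on both arrays, 1 was higher and 0 were lower, and the median difference was 0.36. That count is near the 7.12% of all detected transcripts that were higher. CREM, an activator of transcription in spermatids, was the one that passed the threshold. It was listed with the partners, but no action of a member kinase on it is described here. The CREM signal was 4.31 in crossbred and 2.77 in Zebu testis, a difference of 1.54. Its 3 probes lay between 1.27 and 1.57.

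ODF2, the outer dense fiber protein on which TSSK4 acts, differed by 1.22, and its 4 probes lay between 1.22 and 1.54. TSACC, the co-chaperone of TSSK6 that the array names C3H1orf182, differed by 0.96 at its brighter probe, with 6.38 in crossbred and 5.42 in Zebu, and by just over 1.5 at its other probe. These were the largest differences among the partners after CREM.

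PDPK1, the kinase that activates TSSK3, differed by 0.88, with 1.40 in crossbred and 0.52 in Zebu testis. CREB1, a transcription factor that TSSK4 phosphorylates, differed by 0.84, but its 3 probes ranged from -0.43 to 0.89. PPP1CC, a phosphatase catalytic subunit that binds TSKS, differed by 0.44, and its 4 probes lay between 0.06 and 0.58. SPAG16, an axoneme protein that TSSK2 phosphorylates, differed by 0.28.

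At their brightest probes, the chaperones on which TSSK6 depends were near or below 0. The median over probes above background on both arrays was 0.20 for HSP90AA1 and 0.84 for CDC37. It was -0.38 for HSP90AB1 and -0.42 for STIP1. HSP90AA1 differed by 0.06 and its 6 probes ranged from -0.56 to 0.69. HSP90AB1 differed by -0.40, with probes from -0.81 to 0.07, and the co-chaperone STIP1 differed by -0.44, with all 6 probes between -0.65 and -0.33. CDC37, which loads kinases onto HSP90, differed by -0.27 at its brightest probe and by 0.92 and 0.84 at dimmer probes. H2AX, a histone variant modified in a TSSK6-dependent way in mouse spermatids, differed by -0.25 at both probes.

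Kinases related to the members by sequence and other kinases enriched in germ cells did not pass the threshold. Over all detected transcripts 7.12% were higher and 2.92% lower, so counts of 0 in lists of 14 genes are near these shares. Of 19 related CAMK-group kinases, 14 were on the array, all above background on both arrays, and 0 were higher or lower. Their median difference was 0.39, from -0.63 for MARK2, a kinase of microtubule regulation and cell polarity, to 1.21 for PRKAA1, a catalytic subunit of AMP-activated kinase. Of 16 other germ-cell-enriched kinases, 14 were on the array and 0 were higher or lower. Their median difference was 0.65, from -0.58 for CSNK2A2, a catalytic subunit of casein kinase 2, to 1.36 for HIPK4, a kinase of spermatids. The smallest member difference, 1.38 for TSSK4, lay just above the 1.36 of HIPK4, by less than the spot error.

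Markers of spermatids, the cells in which the TSSK genes are mainly expressed, were also higher on the crossbred array. All 20 post-meiotic spermatid markers were above background on both arrays and had positive differences, and 15 were higher, 0 lower. Their median difference was 1.80, from 0.36 for the protamine PRM1 to 2.92 for SPEM1, a protein of spermatid maturation. The study had already listed most of the markers counted as higher, among them SPEM1, PRM3, TNP2, ODF1, AKAP4 and CABS1, from these same arrays, and the list was chosen with earlier results of these data known, so neither its count nor its median is independent evidence. The signal summed over the list, in units of the 75th percentile of each array, was 882 in crossbred and 374 in Zebu. Set against the median of these markers, TSSK6 was higher by 0.96 and TSSK3 by 0.86, while TSSK1B was at -0.21, TSKS at -0.27 and TSSK4 at -0.43. Only 1 of the 20 spermatid markers, SPEM1, differed by more than TSSK3 or TSSK6, whereas 14 differed by more than TSSK1B and 15 by more than TSKS or TSSK4. These counts do not allow for the spot error. CABS1 at 2.42 and SPATA18 at 2.40 lay within the SD of 0.45 of both TSSK3 and TSSK6. The 0.45 applies to a gap between single genes, not to a distance from a median. TSSK1B and TSKS lay closer to the marker median than the SD of a single difference, 0.31, and TSSK4 did not. The part of the spermatid content in the differences of the kinases was not tested.

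Earlier germ cells and somatic cells had smaller or negative differences. The counts in these lists stand beside 7.12% higher and 2.92% lower over all detected transcripts. Of 14 spermatocyte markers, 10 were on the array and 0 were higher or lower, with a median of 0.42, from -0.03 for MSH5 to 1.04 for DMC1, both genes of meiotic recombination. Their summed signal was 49.6 in crossbred and 36.5 in Zebu. Of 12 spermatogonia markers, 8 were detected and 1 was lower, with a median of -0.80, from -1.65 for SALL4, a factor of undifferentiated germ cells, to 0.59 for STRA8, a gene of meiotic entry. FGFR3 and LIN28A were not well above background on either array, and the summed signal was 30.9 in crossbred and 43.7 in Zebu.

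Of 9 Sertoli cell markers, 7 were detected and all of them had negative differences, with a median of -1.08. DHH, the Desert hedgehog ligand, was lower, at -1.53, and FSHR, the receptor of follicle-stimulating hormone, differed by -0.45. The summed Sertoli signal was 55.0 in crossbred and 104 in Zebu.

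Of 7 Leydig cell markers, all above background on both arrays, 2 were lower, the steroidogenic enzymes HSD3B1 with -1.77 and CYP17A1 with -1.68. HSD17B3, a later enzyme of testosterone synthesis, differed by 0.93 and the median was -0.57, with a summed signal of 89.6 and 133 in crossbred and Zebu. The 6 peritubular and smooth muscle markers differed by a median of -0.77, from -1.02 for DES to -0.50 for MYH11, with summed signals of 39.9 and 68.8. The study also listed SALL4, DHH, HSD3B1 and CYP17A1, and CREM and AIF1, from these arrays, so their direction is not independent evidence either.

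The 5 endothelial markers had a median of 0.08, from -0.38 for KDR to 0.28 for CDH5, both endothelial surface proteins, and 0 passed the threshold. Of 6 macrophage markers, 5 were detected and 1 was higher, AIF1 with 1.95, while CSF1R differed by -0.19 and the median was 0.20. CD163 was above background on the Zebu array only. Of 5 red blood cell markers, 2 were detected, HBA with -2.15, which counted as lower, and HBM with 0.33. Their median was -0.91 and their summed signal 0.571 in crossbred and 2.36 in Zebu, and HBB and ALAS2 were not well above background on either array. The part of these cell types in the differences of the kinases was not tested.

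**Figure D4:**
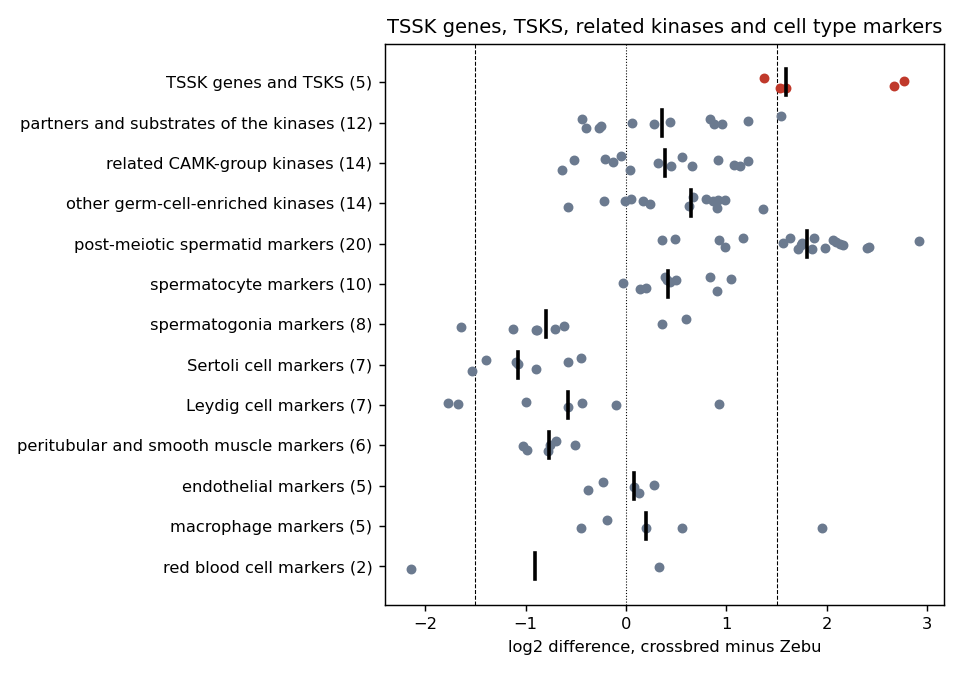
Difference (x axis, log2, crossbred minus Zebu) of each detected gene (points) and the median (black bars) for the TSSK genes and TSKS, their partners, related kinases and cell type markers, with the number of detected genes in brackets and the thresholds of 1.5 in size dashed. The median is 1.60 for the TSSK genes and TSKS, 1.80 for the spermatid markers, and between -1.08 and 0.65 for the other lists.

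The direction of the 5 members was the same under each of 11 other ways of processing, but not all of these could change every value. TSSK1B, TSSK3 and TSSK6 had 1 named probe, so the choice among named probes left them unchanged. The further probes left TSSK1B and TSKS unchanged. Leaving out the patches or averaging spots otherwise could act on the named probes only through the shift of the array. TSSK3 ranged from 2.59 to 2.71, TSSK6 from 2.46 to 2.95 and TSSK1B from 1.57 to 1.78, all above 1.5 throughout. TSKS ranged from 1.38 to 1.71 and was under 1.5 after quantile normalization only. TSSK4 ranged from 0.86 to 1.57 and was above 1.5 only with the running median subtracted. TSSK4 was farthest from the threshold with its dim probe, at 0.86, and with the mean over its probes, at 1.12.

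**Figure D5:**
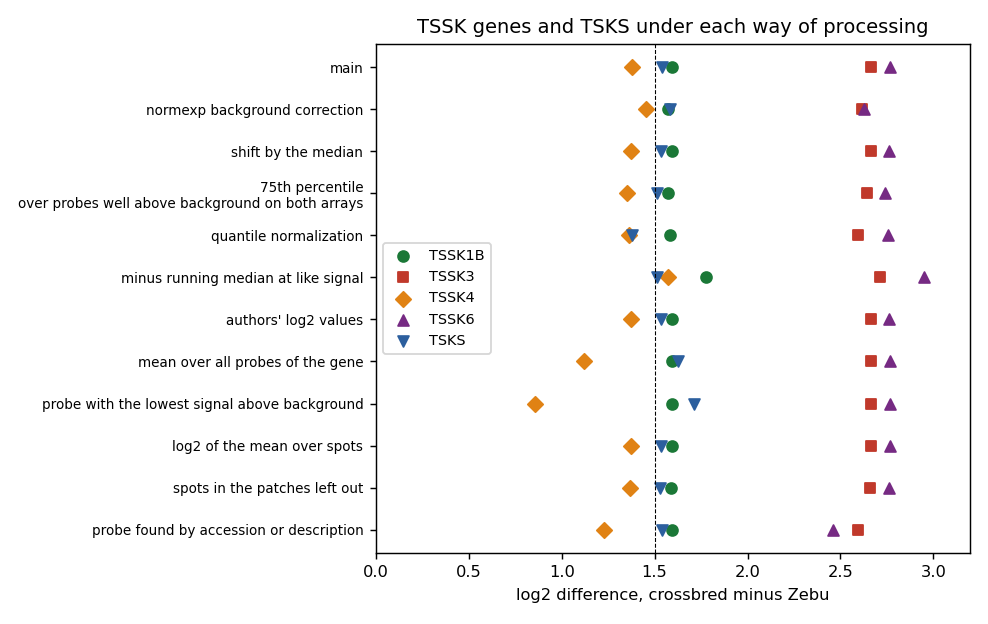
Difference (x axis, log2, crossbred minus Zebu) of the 5 measured members (coloured markers) under the processing used and under 11 alternatives (y axis), with the threshold of 1.5 dashed. TSSK3 and TSSK6 stay between 2.46 and 2.95 in each row, TSKS lies between 1.38 and 1.71, and TSSK4 reaches from 0.86 with its dim probe to 1.57.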

How the data were processed

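Testis RNA pools of 3 crossbred and 3 Zebu bulls were each measured on 1 Agilent bovine array with Cy3. The authors deposited the processed signal of Feature Extraction 11.5.1.1 for each spot, an intensity with background subtracted and no normalization between arrays, together with raw pixel intensities, and log2 values whose medians were -3.00 and -3.01. These log2 values matched the scanner signals with the 75th percentile subtracted.

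From 61657 non-control spots, 13 outlier spots were left out. Each probe took the mean log2 processed signal of its spots, less the 75th percentile of its array (1176 in crossbred and 1233 in Zebu as linear signal). Of the spots, 72.0% and 74.3% were well above background. The brightest probe stood for a gene, which was detected if that probe was well above background on either array. In medians a dim side entered at a bound. Calls, shares of calls and ranks among detected transcripts used the measured difference without a bound, provided the brighter array was well above background for a call. With 1 array per group, calls are descriptive, at 1.5 in size, and precision is limited by the number of arrays. The members and gene lists were chosen with earlier results of these data known. Named genes are the members, all partners, the largest and smallest difference of each other list, and genes behind counts of 5 or fewer. TSSK5-like, ACTN4, and markers not above background were added after seeing values. Normexp (offset 50) used limma 3.58.1 in R 4.3.3, and other steps Python 3.11.15. Steps were tested on simulated data.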

Additional observations from a re-analysis of the deposited data

How the results depend on the processing

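The 11 alternatives were normexp, a shift by the median, a percentile over probes above background on both arrays, quantile normalization, a running median, the authors' log2 values, other choices of probe or of averaging spots, the patches left out, and the further probes, the last chosen after seeing the data. With the probe of lowest signal, TSSK4 differed by 0.86. At a threshold of 2, the members counted as higher were 2 in place of 4, TSSK3 and TSSK6, and at a threshold of 1 they were 5. The share of all detected transcripts at these thresholds is not given here, so these counts have no background beside them. Over all detected transcripts, normexp gave 1030 higher and 169 lower in place of 1762 and 722. Of the values that answer a comparison, 93 others kept their direction and lay near the value reported. Some of these could not change, because a member had no other probe or spot to choose. Among gene lists, spermatogonia and Sertoli markers had 0 lower after normexp, the macrophage median was 0.62 with the running median subtracted, and partners had 0 higher with the mean over probes. No paired analysis was possible because each group has 1 sample and the groups share fewer than 2 replicate numbers. For the same reason no array could be left out. The spot error does not cover differences between bulls.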
